A study of Mus musculus with 4 samples.

Results

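The 36 genes described here make the antioxidant and glutathione systems of the cell. They were chosen by name, with earlier results of these data known. All 36 were found among the 30049 genes of the deposited table of RNA levels of mouse 2-cell embryos. They were sorted by role into 2 superoxide dismutases, 12 peroxide-removing enzymes, 6 genes of the thioredoxin system, 12 genes of the glutathione system and 4 genes of the NRF2 switch. Zygotes were wild type, F2 offspring of BDF1 mice (C57BL/6 by DBA/2 hybrids) of 8 to 12 weeks, taken 18 to 20 h after the mothers' injection of human chorionic gonadotropin and kept in KSOM embryo culture medium for 24 h. Embryos of the DMSO group had 2% dimethyl sulfoxide (DMSO), a common solvent and cryoprotectant, in the medium, and control embryos had none. Whole embryos that had reached the 2-cell stage were lysed, 50 for each group, and each group has 2 libraries, replicates 1 and 2. No source says whether the 50 were shared between replicates or whether the replicates came from separate cultures or mothers, so p-values measure the spread between these libraries, which may be technical.

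Superoxide dismutases turn superoxide, a by-product of respiration, into hydrogen peroxide. Catalase, glutathione peroxidases and peroxiredoxins then remove the peroxide, the peroxiredoxins drawing electrons from thioredoxin and most glutathione peroxidases from glutathione. Glutathione itself is a tripeptide made by glutamate-cysteine ligase and glutathione synthetase and kept reduced by glutathione reductase with NADPH. The transcription factor NRF2 (gene Nfe2l2) switches on many of these genes when its partner KEAP1 no longer marks it for degradation. Early embryos depend at first on RNA, protein and glutathione stored in the egg.

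The table is in TPM, a unit that corrects reads for transcript length and is meant to scale each library to the same total, so levels can be compared between genes and the depth of sequencing is unknown. Its sum was 768174 for control replicate 1, 780527 for control replicate 2, 772487 for DMSO replicate 1 and 799166 for DMSO replicate 2. The listed values thus do not share one total, and the reason was not tested. Below, a pair of values always gives replicate 1 before replicate 2. Markers of the egg and 2-cell embryo were present, with 21 of 22 listed genes in the table and 19 of them above 0 in every library, and they summed to 14248 and 17356 TPM in control and to 17088 and 19810 TPM in DMSO. The most abundant was Dppa3, a maternal factor, at 11639 and 15346 TPM in control and at 10828 and 15216 TPM in DMSO. Nlrp5, another maternal gene, was listed at 0 in control replicate 1 and DMSO replicate 1 and at 0.142 and 0.129 TPM in the other libraries, so a value of 0 is given below only as listed. Without Dppa3 the list summed to 2609 and 2010.3 TPM in control and to 6260 and 4593 TPM in DMSO, so the rest of the list moved with the group. Of its 20 genes whose mean reached 1 TPM, 12 were higher in both DMSO libraries than in either control library and 2, Obox6 and the low Zp3, were lower, where 31.1% and 38.7% of all genes with such a mean did so. Oosp1, a secreted oocyte protein, was at 877 and 576 TPM in control against 2086 and 1763 TPM in DMSO. Bmp15, a growth factor of the oocyte, was at 102 and 56.0 TPM in control against 544 and 285 TPM in DMSO. Tcstv1, a gene of the 2-cell embryo, was likewise higher, at 160 and 103 TPM in control against 567 and 380 TPM in DMSO. Zscan4d, also of the 2-cell embryo, overlapped between the groups. Obox6, a homeobox gene, was at 602 and 690.05 TPM in control against 162 and 194 TPM in DMSO. The part of such RNA in the results below was not tested.

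Of 16 markers of the cumulus and granulosa cells that surround the egg, 7 were above 0 in every library, Inhba, Amh and Lhcgr were listed at 0 in all, and the sum was 4.39 and 3.01 TPM in control and 5.70 and 4.19 TPM in DMSO. Their highest gene by the mean of the 4 libraries was Cyp11a1, at 0.781, 0.802, 2.10 and 0.958 TPM in the same order of libraries. Of 7 sperm markers 1 was above 0 in every library, Tnp2 and Smcp were listed at 0 in all, and the sum was 2.96 and 3.38 TPM in control and 13.5 and 8.69 TPM in DMSO, most of it Prm2 (2.56, 2.86, 11.04 and 6.79 TPM). The 5 blood markers summed to 11.02, 4.11, 10.7 and 16.2 TPM, mainly Hba-a2 (6.94, 2.51, 6.90 and 11.7 TPM), with Hbb-bt at 0 in all. The 6 oviduct markers summed to 121.7, 112.3, 62.5 and 89.5 TPM, mainly Epcam (103.6, 92.6, 36.1 and 55.9 TPM), while Ovgp1, the oviduct-specific glycoprotein, went the other way (17.9, 19.5, 26.2 and 33.2 TPM). The rest of that list, Foxj1, Col1a1, Col3a1 and Dcn, did not exceed 0.404 TPM in any library, so its sum follows Epcam. The 7 markers of later embryos summed to 23.2, 14.995, 27.2 and 25.8 TPM, with Nanog highest (7.73, 7.04, 11.49 and 14 TPM). The 13 protein-coding genes of the mitochondrial genome held 10.8% and 12.4% of the TPM sum in control and 15.3% and 21.7% in DMSO, so this share moved with the group. In such pools fewer cells of a type and less RNA per cell cannot be told apart.

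DMSO-treated embryos had more RNA of 2 abundant peroxiredoxins, Prdx1 and Prdx2. They had less of Gclm, the modifier subunit of glutamate-cysteine ligase, and of Gsr, which recycles glutathione. They also had less of the glutaredoxins Glrx2 and Glrx3, of the mitochondrial peroxiredoxin Prdx3 and of Gpx7. The comparison used limma, which fits each gene a linear model of log2(TPM + 1) and steadies its variance by that of the other genes, and a gene is called here at an adjusted p-value under 0.05. All log2 fold changes below are differences between the group means on this scale, which understates changes of low genes, and SE is their standard error. Of the 36 genes 30 reached a mean of 1 TPM over the libraries and were tested among 12038 genes. limma called 2 of the 30 higher, against 6.42% of all genes tested, and 6 lower, against 14.1% of all. In either direction 8 of 30, or 26.7%, were called, against 20.5% of all genes. Of the 8, Prdx3 and Gsr lost their calls with 0.1 added to TPM in place of 1 and with each other scaling of the libraries. Gclc and Gss, the other genes of glutathione synthesis, were not called. Over the 30 genes the median log2 fold change was -0.42 (17 were below 0 and 13 above), and over all genes tested it was -0.09. In 24 of the 30, or 80.0%, the groups did not overlap, against 69.8% of all genes. DMSO lay above control in 10 of them, against 31.1% of all genes, and below control in 14, against 38.7% of all genes. Among all genes tested, 773 were called higher and 1697 lower, and quantile normalization turned this into 1076 higher and 1121 lower without changing the direction of any called gene of the set.

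These calls rest on few libraries. Without control replicate 1, control replicate 2 or DMSO replicate 1 limma called 0 genes in the whole table, although 3745, 2602 and 3078 genes passed 0.05 before adjustment. In those fits the lone library is assumed to vary like the group that kept its pair. Without DMSO replicate 2 limma called 1883 genes, among them Prdx1, Prdx5, Glrx2, Glrx3, Gclc, Gclm and Gsr. With every gene above 0 TPM tested, which made 22257 genes, limma called 0, although 5368 passed 0.05 before adjustment. Each of the 8 called genes kept its direction in all of these fits.

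**Figure D1:**
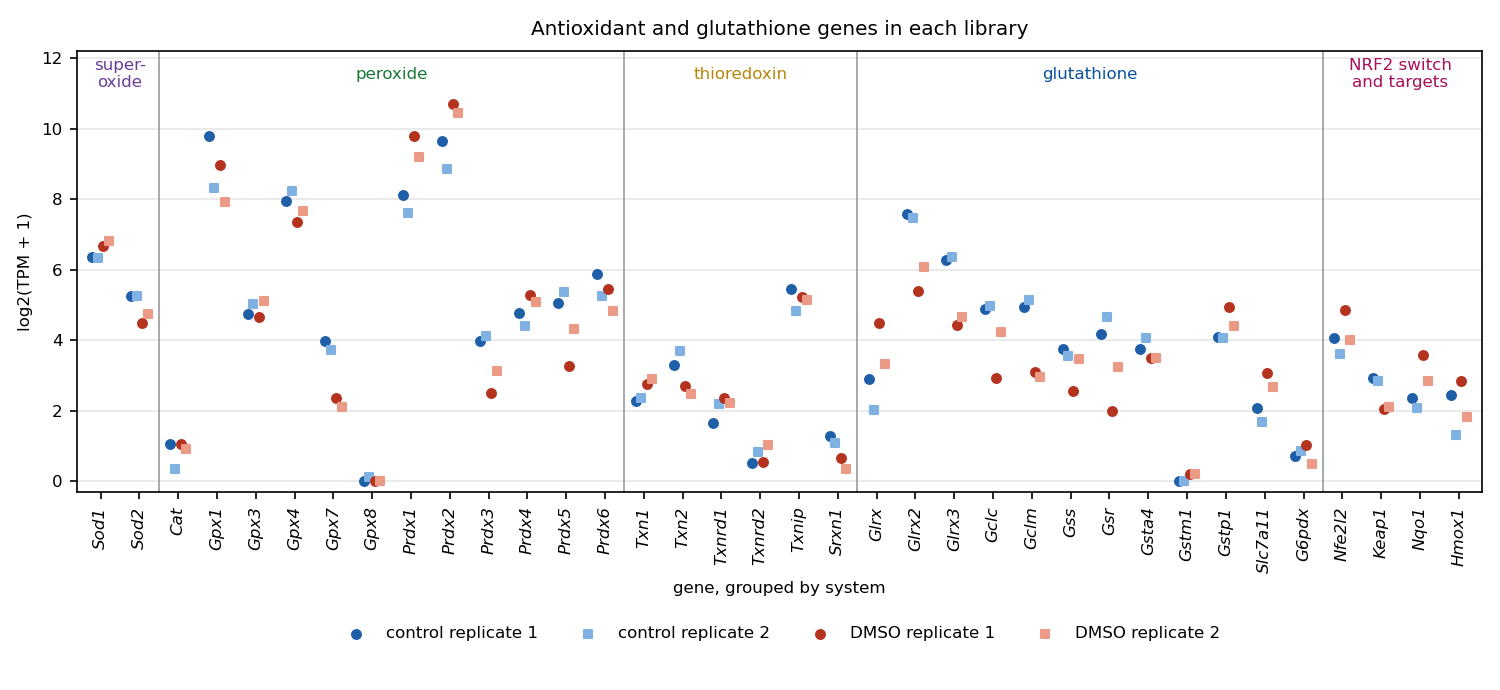
Level of each of the 36 genes as log2(TPM + 1) in the 4 libraries (circles replicate 1, squares replicate 2, blue control, red DMSO), grouped by system. Prdx1 and Prdx2 lie higher in both DMSO libraries, and Glrx2, Glrx3 and Gclm lower.

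The RNA of this set was concentrated in a few genes. The 36 genes summed to 2990 and 2019 TPM in the control libraries and to 3730 and 2931 TPM in the DMSO libraries. Gpx1, Gpx4, Prdx1 and Prdx2 together held 74.0% and 63.2% of that sum in control and 86.5% and 82.3% in DMSO. Prdx2 alone held 26.9% and 23.0% in control and 44.8% and 47.2% in DMSO, while the share of Gpx1 was 29.5% and 15.8% in control and 13.5% and 8.19% in DMSO. Catalase, Gpx8, Txnrd2, Srxn1, Gstm1 and G6pdx stayed under the minimum of 1 TPM for the test. Cat, the peroxisomal catalase, was at 1.09 and 0.274 TPM in control and at 1.08 and 0.879 TPM in DMSO, so this textbook peroxide-removing enzyme had little RNA in either group. Gpx8, a peroxidase of the endoplasmic reticulum, was listed at 0 in 3 libraries and at 0.0973 TPM in control replicate 2. Gstm1, a glutathione transferase, was listed at 0 in control and reached only 0.155 and 0.152 TPM with DMSO. Txnrd2, Srxn1 and G6pdx ranged from 0.282 to 1.43 TPM over all libraries.

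Neither superoxide dismutase was called. Sod1, the copper-zinc enzyme of the cytosol (chromosome 16 of GRCm38 from 90220754 to 90226329), was at 80.8 and 79.7 TPM in control and at 101.2 and 111.5 TPM in DMSO. Sod2, the manganese enzyme of mitochondria (chromosome 17 from 13006846 to 13040063), was at 37.2 and 37.4 TPM in control and at 21.7 and 25.7 TPM in DMSO. Both DMSO libraries were above control for Sod1 and below it for Sod2. The log2 fold changes were 0.40 (SE 0.24, adjusted p by limma = 0.255) and -0.64 (SE 0.27, adjusted p by limma = 0.126). Of the 31-base words in Sod2 RNA 26.7% are shared with other genes, so its value is less certain.

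Among the glutathione peroxidases, the abundant Gpx1 and Gpx4 were not called and the rarer Gpx7 was lower. Gpx1, the cytosolic selenium enzyme, was at 882 and 319 TPM in control and at 505 and 240.0 TPM in DMSO, and the groups overlapped. Its control libraries lay so far apart that the log2 fold change of -0.61 (SE 0.55, adjusted p by limma = 0.431) became 0.13 without control replicate 1. Gpx4, which repairs lipid peroxides in membranes, was at 246 and 298 TPM in control and at 164 and 201 TPM in DMSO. Both DMSO libraries were lower, with a log2 fold change of -0.57 (SE 0.26, adjusted p by limma = 0.147), and 38.9% of its 31-base words also occur in other genes, nearly all in the pseudogene Gpx4-ps2. Gpx3, the secreted form, ran from 24.4 to 33.3 TPM with overlapping groups. Gpx7, a peroxidase of the endoplasmic reticulum that takes part in protein folding (chromosome 4 from 108400390 to 108406961), fell from 13.5 ± 1.88 to 3.73 ± 0.540 TPM (SD, n = 2). It was at 14.8 and 12.1 TPM in control and at 4.11 and 3.35 TPM in DMSO, a log2 fold change of -1.61 (SE 0.31, adjusted p by limma = 0.0248) that lay between -1.74 and -1.48 without any one library.

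Peroxiredoxins went both ways. Prdx2, a cytosolic peroxiredoxin (chromosome 8 from 84969587 to 84974834), had the highest mean level of the 36 genes. It was at 806 and 464 TPM in control and at 1671 and 1384 TPM in DMSO. Prdx1, its cytosolic and nuclear relative (chromosome 4 from 116685544 to 116700822), was at 278 and 195 TPM in control and at 888 and 588 TPM in DMSO. Both genes were higher in each DMSO library than in either control library, Prdx1 by 3.12-fold and Prdx2 by 2.41-fold in the group means. Prdx1 rose by a log2 fold change of 1.63 (SE 0.32, adjusted p by limma = 0.0248), which lay between 1.33 and 1.93 without any one library. Prdx2 rose by 1.31 (SE 0.33, adjusted p by limma = 0.0386), between 0.92 and 1.71 without any one library, but was not called when the variance was fitted without a trend (adjusted p = 0.0564 by limma). With TPM rescaled without the mitochondrial genes both stayed called (adjusted p = 0.0369 and 0.0482 by limma). Of their 31-base words 15.4% and 16.5% occur in other genes.

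Prdx3, the peroxiredoxin of the mitochondrial matrix (chromosome 19 from 60864051 to 60874556), fell. It was at 14.8 and 16.3 TPM in control and at 4.71 and 7.81 TPM in DMSO, a log2 fold change of -1.22 (SE 0.34, adjusted p by limma = 0.0485). This call was lost with a pseudocount of 0.1, with the variance fitted without a trend and with each other scaling of the libraries (log2 fold changes -1.18, -1.13 and -1.17), and without 1 library the value lay between -1.54 and -0.91. Prdx5, found in mitochondria, peroxisomes and cytosol, missed the threshold. It was at 32.5 and 40.2 TPM in control and at 8.58 and 19.0 TPM in DMSO, a log2 fold change of -1.42 (SE 0.40, adjusted p by limma = 0.0512). Raising the filter to a mean of 5 TPM made it a gene called lower (adjusted p = 0.0359 by limma). Without any one library its log2 fold change lay between -1.95 and -0.90. Of its 31-base words 16.9% belong also to the overlapping gene Trmt112, which was at 146 and 117 TPM in control and at 185 and 132 TPM in DMSO. Prdx4, the peroxiredoxin of the endoplasmic reticulum, was at 26.5 and 20.4 TPM in control and at 38.3 and 33.1 TPM in DMSO (log2 fold change 0.60, adjusted p = 0.165 by limma). Prdx6, which also repairs phospholipids, was at 58.4 and 37.4 TPM in control and at 43.0 and 27.7 TPM in DMSO, with overlapping groups.

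limma called 0 of the 4 tested genes of the thioredoxin system, against 20.5% of all genes, so that with 4 genes little can be read from the count. The unadjusted p-value was under 0.05 for Txn2 alone, as it was for 40.2% of all genes tested. Txn1, cytosolic thioredoxin, was at 3.88 and 4.11 TPM in control and at 5.80 and 6.43 TPM in DMSO (log2 fold change 0.51, adjusted p = 0.255 by limma). Txn2, the mitochondrial form, was at 8.92 and 11.9 TPM in control and at 5.46 and 4.57 TPM in DMSO (log2 fold change -0.91, adjusted p = 0.0842 by limma). Neither gene had overlapping groups, which also held for 69.8% of all genes tested, and they lay on opposite sides of control. Txnrd1, the cytosolic reductase that recharges thioredoxin, was at 2.12 and 3.60 TPM in control and at 4.19 and 3.63 TPM in DMSO (log2 fold change 0.37, adjusted p = 0.457 by limma). Txnip, a protein that binds and blocks thioredoxin, was the most abundant gene of this system, at the 76.6th percentile of mean level of all genes tested. It was at 42.9 and 27.3 TPM in control and at 36.2 and 34.4 TPM in DMSO, with overlapping groups. Srxn1, sulfiredoxin, which reactivates peroxiredoxins, was too low for the test, at 1.43 and 1.11 TPM in control and at 0.580 and 0.282 TPM in DMSO.

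The glutathione system held 4 of the 6 genes called lower, so that 4 of its 10 tested genes were called lower against 14.1% of all genes. Both DMSO libraries were below both control libraries in 7 of the 10 and above them in 3, against 38.7% and 31.1% of all genes. Its median log2 fold change was -0.99, against -0.09 over all genes tested. Gclm, the modifier subunit of glutamate-cysteine ligase (chromosome 3 from 122245557 to 122270732), had the lowest log2 fold change of the 30 genes. It was at 29.5 and 34.6 TPM in control and at 7.57 and 6.78 TPM in DMSO, or 4.47-fold lower in the group means. Its log2 fold change was -2.01 (SE 0.29, adjusted p by limma = 0.0181), and it lay between -2.12 and -1.90 without any one library. Gclc, the catalytic subunit, was at 28.6 and 30.1 TPM in control and at 6.70 and 17.9 TPM in DMSO, so that the DMSO libraries differed from each other. Its log2 fold change of -1.33 (SE 0.45) was not called (adjusted p = 0.0764 by limma), and it lay between -1.98 and -0.69 without any one library. Gss, glutathione synthetase, was at 12.6 and 10.8 TPM in control and at 4.96 and 10.1 TPM in DMSO (log2 fold change -0.64, adjusted p = 0.248 by limma). The log2 fold change of Gss lay between -1.09 and -0.19 without any one library.

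Gsr, the reductase that restores glutathione (chromosome 8 from 33652523 to 33698163), was at 17.0 and 24.4 TPM in control and at 2.998 and 8.48 TPM in DMSO. It fell by 1.80 on the log2 scale (SE 0.47, adjusted p by limma = 0.0421), between -2.42 and -1.17 without any one library, and the call was lost with a pseudocount of 0.1 and with each other scaling of the libraries. Under these scalings the value hardly moved, at -1.75, -1.69 and -1.77. G6pdx, which supplies NADPH, was too low for the test, at 0.657 and 0.805 TPM in control and at 1.03 and 0.414 TPM in DMSO. Slc7a11, the cystine importer, was at 3.26 and 2.18 TPM in control and at 7.41 and 5.41 TPM in DMSO, higher in both DMSO libraries but not called (log2 fold change 0.997, SE 0.35, adjusted p by limma = 0.0842).

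Many glutaredoxins use glutathione to reduce protein disulfides, and Glrx3 serves iron-sulfur proteins. Glrx2, which has mitochondrial and nuclear forms (chromosome 1 from 143716338 to 143749676), fell from 184.6 ± 9.85 to 53.8 ± 17.6 TPM (SD, n = 2). Its libraries were at 192 and 178 TPM in control and at 41.3 and 66.2 TPM in DMSO, a log2 fold change of -1.80 (SE 0.30, adjusted p by limma = 0.0210) that lay between -2.13 and -1.47 without any one library. Glrx3 (chromosome 7 from 137437614 to 137468594) was at 76.4 and 81.9 TPM in control and at 20.7 and 24.3 TPM in DMSO, a log2 fold change of -1.78 (SE 0.26, adjusted p by limma = 0.0181) between -1.89 and -1.66 without any one library. Both were lower in each DMSO library, and 17.6% of the words of Glrx3 occur in other genes. Glrx, the cytosolic glutaredoxin, was at 6.54 and 3.10 TPM in control and at 21.5 and 8.95 TPM in DMSO. Its DMSO libraries lay above control but apart from each other, and its log2 fold change of 1.43 (SE 0.50) was not called (adjusted p = 0.0836 by limma). That value lay between 0.84 and 2.02 without any one library.

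The transferases join glutathione to toxic compounds. Gsta4, which clears products of lipid peroxidation, was at 12.5 and 15.9 TPM in control and at 10.4 and 10.2 TPM in DMSO (log2 fold change -0.42, adjusted p = 0.317 by limma). Gstp1, the pi-class form, was at 16.2 and 15.8 TPM in control and at 29.97 and 19.995 TPM in DMSO (log2 fold change 0.58, adjusted p = 0.203 by limma), and 38.5% of its 31-base words occur also in Gstp2, which was not analysed here. Neither transferase had overlapping groups, and the same held for 69.8% of all genes tested.

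Of the 4 genes of the NRF2 switch limma called 0, against 20.5% of all genes. The unadjusted p-value was under 0.05 for Keap1 and Nqo1, or 2 of 4, which is near the 40.2% of all genes. Nfe2l2, which encodes NRF2, was at 15.8 and 11.2 TPM in control and at 27.8 and 14.96 TPM in DMSO, with overlapping groups. Keap1, its inhibitor, was at 6.61 and 6.21 TPM in control and at 3.17 and 3.28 TPM in DMSO (log2 fold change -0.81, SE 0.31, adjusted p by limma = 0.103). Nqo1, a quinone reductase and classical NRF2 target, was at 4.18 and 3.24 TPM in control and at 10.9 and 6.21 TPM in DMSO (log2 fold change 0.98, SE 0.37, adjusted p by limma = 0.101). Keap1 lay below control and Nqo1 above it in both DMSO libraries. Hmox1, heme oxygenase and another such target, was at 4.48 and 1.48 TPM in control and at 6.16 and 2.57 TPM in DMSO, and its groups overlapped.

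**Figure D2:**
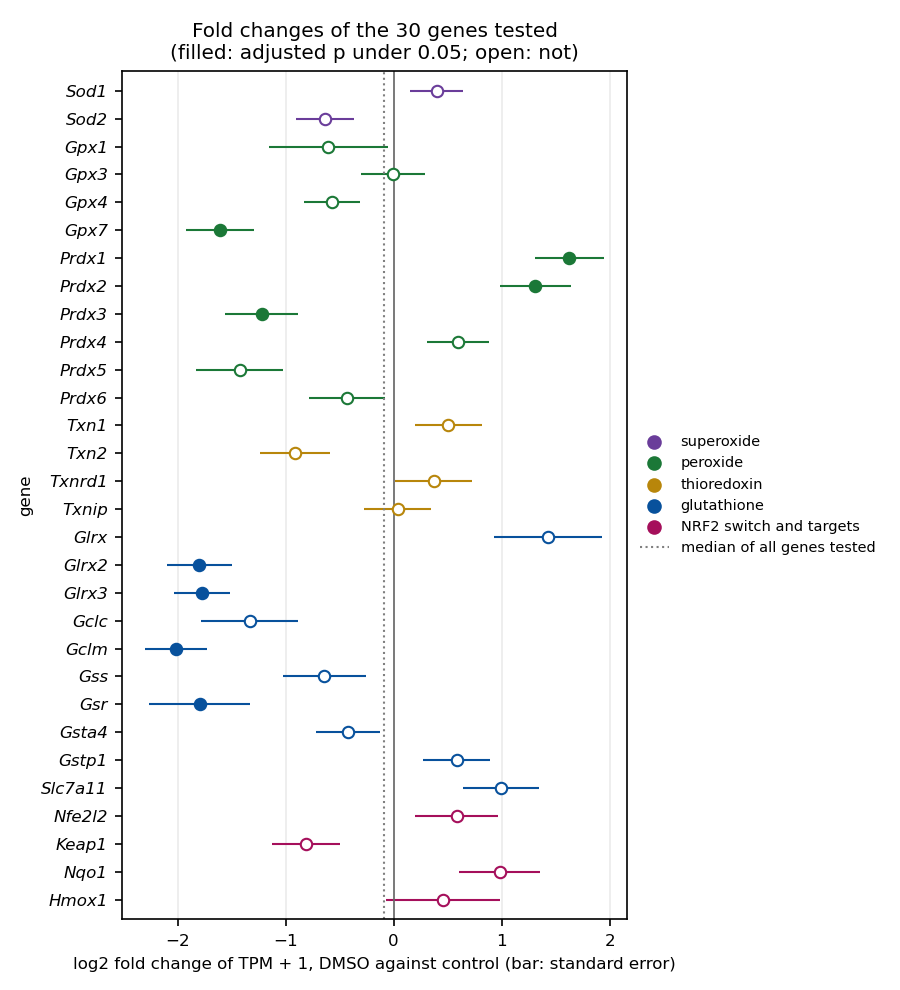
log2 fold change of TPM + 1 in DMSO against control for the 30 genes tested, with the standard error as a bar. Filled points mark the 8 genes with a limma adjusted p-value under 0.05, of which Prdx1 and Prdx2 lie to the right of 0 and the other 6 to the left, down to -2.01 for Gclm.

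The ratio of a gene acting outside mitochondria to its mitochondrial relative went no one way over 12 pairs. It was higher in both DMSO libraries for 5, lower in both for 2 and overlapped between the groups for 5. The groups thus stood apart in 58.3% of these pairs, against 67.7% of all pairs of tested genes above 0 TPM in every library, so the count is no result about the pairs. These pairs were chosen after their values had been seen, and Prdx3, Glrx2 and Glrx3 each stand in 2 of them, so their ratios are a description without a test. A ratio of TPM within a library is not changed by a factor that multiplies the whole library, though quantile normalization can change it. The ratio of Sod1 to Sod2 was 2.17 and 2.13 in control and 4.67 and 4.34 in DMSO. The ratio of Prdx1 to Prdx3 was 18.8 and 11.96 in control and 189 and 75.2 in DMSO, and that of Prdx2 to Prdx3 was 54.3 and 28.5 in control and 355 and 177 in DMSO. Both DMSO libraries lay above both control libraries in each of these ratios. The ratio of Txn1 to Txn2 was 0.435 and 0.347 in control and 1.06 and 1.41 in DMSO, so that the cytosolic form was the more abundant one only in the DMSO libraries. The ratio of Glrx to Glrx2 was 0.0341 and 0.0175 in control and 0.521 and 0.135 in DMSO, again without overlap. The groups overlapped for the reductases, where the ratio of Txnrd1 to Txnrd2 was 4.81 and 4.54 in control and 9.10 and 3.46 in DMSO with very low levels of Txnrd2. They overlapped also for Glrx3 to Glrx2, at 0.399 and 0.461 in control and 0.4999 and 0.367 in DMSO. Glrx3, a glutaredoxin of the cytosol and nucleus, and Glrx5, a mitochondrial one, had a ratio that went the opposite way, from 4.99 and 6.36 in control to 1.06 and 1.59 in DMSO. The ratio of Mthfd1 to Mthfd2, a cytosolic and a mitochondrial folate enzyme, was also lower in both DMSO libraries, at 0.00486 and 0.0129 against 0.0466 and 0.109 in control. Overlap was also seen for 3 pairs of NADPH supply. The ratio of Nadk to Nadk2, both NAD kinases, was 2.56 and 3.93 in control and 3.47 and 1.55 in DMSO. That of Me1 to Me2, both malic enzymes, was 0.709 and 0.810 in control and 1.19 and 0.614 in DMSO. That of Idh1, which was too low for the test, to Idh2 was 0.0705 and 0.0928 in control and 1.62 and 0.0196 in DMSO. The RNA of the mitochondrial genome itself took a larger share in DMSO, as given above, and its part in these ratios was not tested.

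**Figure D3:**
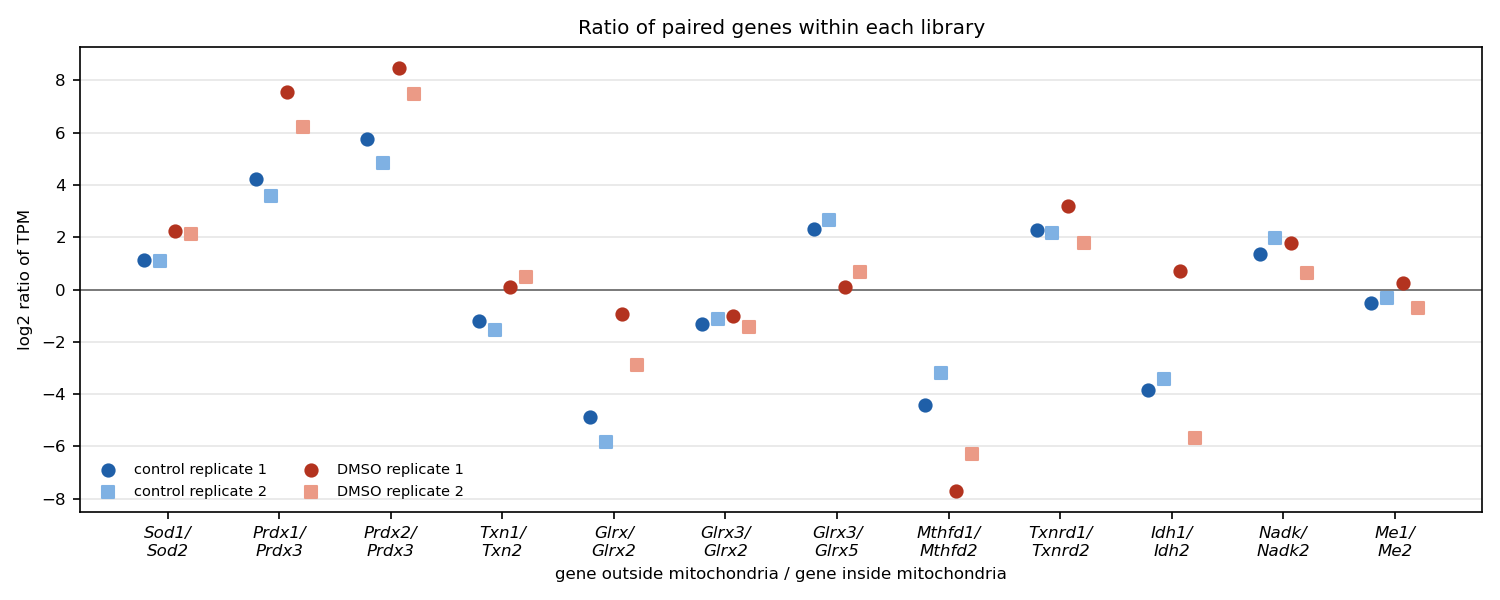
log2 ratio of TPM between a gene acting outside mitochondria and a mitochondrial relative in each of the 4 libraries (blue control, red DMSO). Both DMSO libraries lie above both control libraries for 5 of the 12 pairs and below them for Glrx3 with Glrx5 and Mthfd1 with Mthfd2, and the mean difference runs from -3.17 for Mthfd1 with Mthfd2 to 3.44 for Glrx with Glrx2.

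Promoters are shown because NRF2 acts through a short DNA element in such regions. They are those of both genes called higher, Prdx1 and Prdx2, and of Gclm and Glrx3, which had the lowest log2 fold changes among the called genes with exactly 1 window in the RefSeq table. Glrx2, with 4 windows, and Gsr, with none, were below Glrx3 and are not shown. The bases before each gene are printed from RefSeq (GRCm38.p6, plus strand in each case), beginning 250 bases before the RefSeq start and ending before the first base of the gene in RefSeq or GENCODE, at chr4:116685349-116685543, chr8:84969372-84969586, chr3:122245307-122245556 and chr7:137437323-137437572 in the order below. Capitals mark matches to TGACNNNGC, the core of the antioxidant response element, here read on the opposite strand.
Prdx1: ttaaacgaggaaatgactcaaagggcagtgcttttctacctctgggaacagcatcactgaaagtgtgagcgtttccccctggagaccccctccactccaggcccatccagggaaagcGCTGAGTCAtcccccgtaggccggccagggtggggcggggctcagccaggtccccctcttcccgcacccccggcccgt
Prdx2: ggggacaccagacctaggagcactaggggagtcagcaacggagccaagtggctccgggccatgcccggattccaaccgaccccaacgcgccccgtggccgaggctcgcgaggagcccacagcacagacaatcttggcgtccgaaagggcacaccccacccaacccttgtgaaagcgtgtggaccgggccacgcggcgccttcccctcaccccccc
Gclm: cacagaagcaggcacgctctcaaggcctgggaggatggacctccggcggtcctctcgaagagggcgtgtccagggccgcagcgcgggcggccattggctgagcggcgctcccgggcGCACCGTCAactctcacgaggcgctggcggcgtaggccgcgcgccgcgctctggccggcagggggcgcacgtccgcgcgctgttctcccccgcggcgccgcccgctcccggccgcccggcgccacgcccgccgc
Glrx3: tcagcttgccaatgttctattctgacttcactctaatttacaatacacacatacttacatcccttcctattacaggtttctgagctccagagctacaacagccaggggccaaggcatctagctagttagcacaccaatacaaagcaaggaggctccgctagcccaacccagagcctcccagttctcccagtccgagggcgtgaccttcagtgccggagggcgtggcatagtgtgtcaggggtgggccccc

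Matches to TGACNNNGC were searched on both strands from 250 bases before to 50 bases after each RefSeq start. Of the 36 genes 31 had such a window, and 7 of these, or 22.58%, held a match, against 13.99% of 27025 genes in RefSeq. Prdx1, called higher, holds TGACTCAGC 133 bases before its start, and Gclm, called lower, holds TGACGGTGC 134 bases before its start. The other matches are in Sod1, Txnrd1, Srxn1, G6pdx and Nfe2l2, none of them called or, for Srxn1 and G6pdx, tested. Prdx2 and Glrx3 hold none in this window. Among the called genes, only Prdx1, higher, and Gclm, lower, hold a match, which is too few to relate a match to a direction. A match describes letters only.

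Other genes of redox metabolism were listed in 8 groups of 145 genes, of which 143 were in the table and 101 were tested (Gstp2 and Ftl1 were not analysed here). limma called 10 higher and 12 lower, or 21.8%, against 20.5% of all genes, and the median log2 fold change was 0.06. The group that stood highest was the other glutathione transferases, with 4 of 11 tested called higher and 0 lower, against 6.42% and 14.1% of all genes (median 0.99; 3 of the 11 were below 0). Mgst3, a membrane-bound member of the family, was at 72.0 and 42.3 TPM in control and at 210 and 148 TPM in DMSO (log2 fold change 1.66, SE 0.35, adjusted p by limma = 0.0281). Gstm5, a mu-class form, was at 53.0 and 23.8 TPM in control and at 136 and 84.4 TPM in DMSO (log2 fold change 1.56, adjusted p = 0.0496 by limma). Gsto2, an omega-class form, rose from 4.41 and 1.68 TPM to 12.97 and 9.61 TPM (log2 fold change 1.68, adjusted p = 0.0403 by limma). Gstm6 was at 0.172 and 0.152 TPM in control and at 7.98 and 2.53 TPM in DMSO (log2 fold change 2.28, adjusted p = 0.0301 by limma). It thus passed the filter only through its DMSO libraries, and the count of 4 includes it. These 4 genes were higher in each DMSO library than in either control library, as were 31.1% of all genes tested.

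Genes that supply NADPH had 3 of 14 called lower, or 21.4% against 14.1% of all genes, and 0 higher (median -0.25). Taldo1, transaldolase of the pentose phosphate pathway, was at 44.8 and 62.6 TPM in control and at 9.13 and 8.40 TPM in DMSO (log2 fold change -2.47, SE 0.30, adjusted p by limma = 0.0181). Idh2, the mitochondrial NADP-dependent isocitrate dehydrogenase, was at 8.13 and 11.49 TPM in control and at 0.322 and 2.19 TPM in DMSO (log2 fold change -2.38, adjusted p = 0.0272 by limma). Mthfd1, a folate enzyme, had a log2 fold change of -1.502 (adjusted p = 0.0315 by limma). The most abundant genes of this group were not called, Rpia with a log2 fold change of 0.32 and Mthfd2 with 1.10. Of 13 genes of glutathione turnover and cysteine supply 2 were called, both lower, or 15.4%, which is near the 14.1% of all genes (median 0.29). They were Mat2a, which makes S-adenosylmethionine (log2 fold change -1.24, adjusted p = 0.0278 by limma), and Slc1a5, a glutamine carrier (log2 fold change -1.36, adjusted p = 0.0388 by limma). Ggct, a glutathione-breakdown enzyme at 163 and 102 TPM in control and at 355 and 240 TPM in DMSO, just missed the threshold (adjusted p = 0.0530 by limma), and Cth, which makes cysteine, had a log2 fold change of 0.29.

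Among 22 tested regulators and further targets of NRF2, 2 were called higher and 2 lower, or 18.2% in either direction against 20.5% of all genes (median -0.18). Bach1, a repressor that competes with NRF2 for its element, was at 27.7 and 36.5 TPM in control and at 9.91 and 13.6 TPM in DMSO (log2 fold change -1.38, SE 0.31, adjusted p by limma = 0.0323). Gsk3b, a kinase that marks NRF2 for degradation, had a log2 fold change of -0.99 (adjusted p = 0.0421 by limma). Osgin1 and Blvrb, a biliverdin reductase, rose from 1.08 and 1.44 to 8.86 and 3.88 TPM and from 0.129 and 0.570 to 3.50 and 2.74 TPM (adjusted p = 0.0436 and 0.0315 by limma). Blvrb passed the filter only through its DMSO libraries. The abundant Cul3, which carries KEAP1 in its ubiquitin ligase, was at 989 and 1008 TPM in control and at 500 and 617 TPM in DMSO and missed the threshold (adjusted p = 0.0541 by limma), as did the iron store Fth1 (log2 fold change 0.63, adjusted p = 0.154 by limma).

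Gpx1 and Gpx4 are selenoproteins, and among 13 tested genes of selenoprotein synthesis and further selenoproteins 2 were called higher and 3 lower, or 38.5% in either direction against 20.5% of all genes (median -0.23). Selenow rose from 56.8 and 51.1 TPM to 153 and 245 TPM (log2 fold change 1.83, adjusted p = 0.0209 by limma), and Eefsec, the elongation factor for selenocysteine, from 2.43 and 1.03 TPM to 10.0 and 6.16 TPM (adjusted p = 0.0347 by limma). Selenok, Selenos and Trnau1ap fell, with log2 fold changes of -1.15, -0.97 and -1.17 (adjusted p = 0.0382, 0.04995 and 0.0387 by limma). Selenos and Selenok, both of the endoplasmic reticulum, had the highest means of this group over the 4 libraries, but in the DMSO libraries Selenok, at 86.9 and 123 TPM, lay below Selenow. Of 4 further superoxide and peroxide genes 1 was called in each direction, against 6.42% higher and 14.1% lower of all genes (median -0.18). Ccs, which loads copper onto Sod1, fell from 32.5 and 23.2 TPM to 6.42 and 12.1 TPM (adjusted p = 0.0385 by limma), Gpx6 rose from 2.57 and 0.539 TPM to 9.02 and 7.71 TPM (adjusted p = 0.0334 by limma), and Park7 was not called (log2 fold change -0.77).

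Of 16 tested genes with a thioredoxin fold or methionine sulfoxide reductase activity 1 was called, or 6.25% against 20.5% of all genes (median 0.14). It was Txnl4a, a spliceosome protein despite its fold, lower by a log2 fold change of -1.95 (adjusted p = 0.0265 by limma), while Txndc9 and P4hb, the most abundant of the group, had log2 fold changes of -0.41 and -0.78 and were not called. Of 8 tested makers of superoxide and peroxide 1 was called, or 12.5% against the same 20.5% (median 0.04). Xdh, xanthine dehydrogenase, rose from 2.65 and 1.56 TPM to 16.4 and 10.1 TPM (log2 fold change 2.18, SE 0.38, adjusted p by limma = 0.0220). Cybb, a subunit of the phagocyte oxidase, had a log2 fold change of -1.38 (adjusted p = 0.0509 by limma). With TPM rescaled without the mitochondrial genes the calls of Ccs, Gstm5, Gsto2, Slc1a5, Bach1, Gsk3b, Osgin1, Selenok, Selenos and Trnau1ap were lost, but their log2 fold changes moved little. Those of Gstm5, Gsto2 and Osgin1 went from 1.56, 1.68 and 1.62 to 1.67, 1.86 and 1.85, and those of the 7 lower genes ran from -1.53 to -0.97 before and from -1.47 to -0.87 after.

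**Figure D4:**
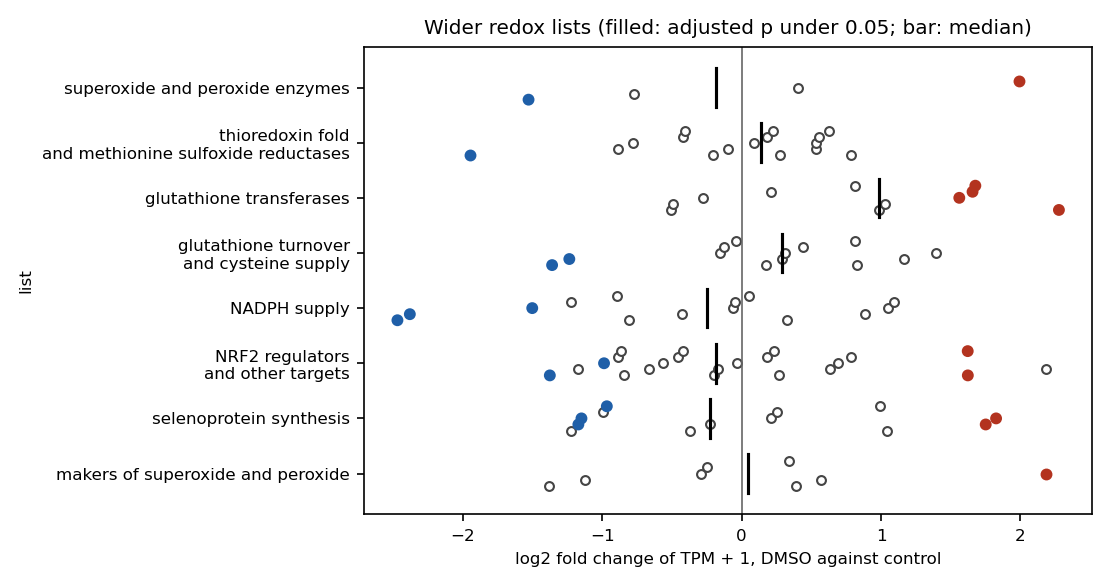
log2 fold change of TPM + 1 in DMSO against control for 101 further redox genes in 8 lists. Filled points mark limma adjusted p-values under 0.05 (red higher, blue lower), the vertical bar is the median of each list, and the 4 filled transferases lie between 1.56 and 2.28.

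Set against all genes tested, Prdx1 and Prdx2 stood at the 98.3rd and 99.4th percentile of mean level, and their log2 fold changes at the 96.1st and 92.6th percentile. Gclm stood at the 2.77th percentile of log2 fold changes, Glrx2 at the 4.58th, Gsr at the 4.59th, Glrx3 at the 4.77th, Gpx7 at the 6.77th and Prdx3 at the 13.7th. Over the 12038 genes tested log2 fold changes ran from -6.93 to 5.85.

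**Figure D5:**
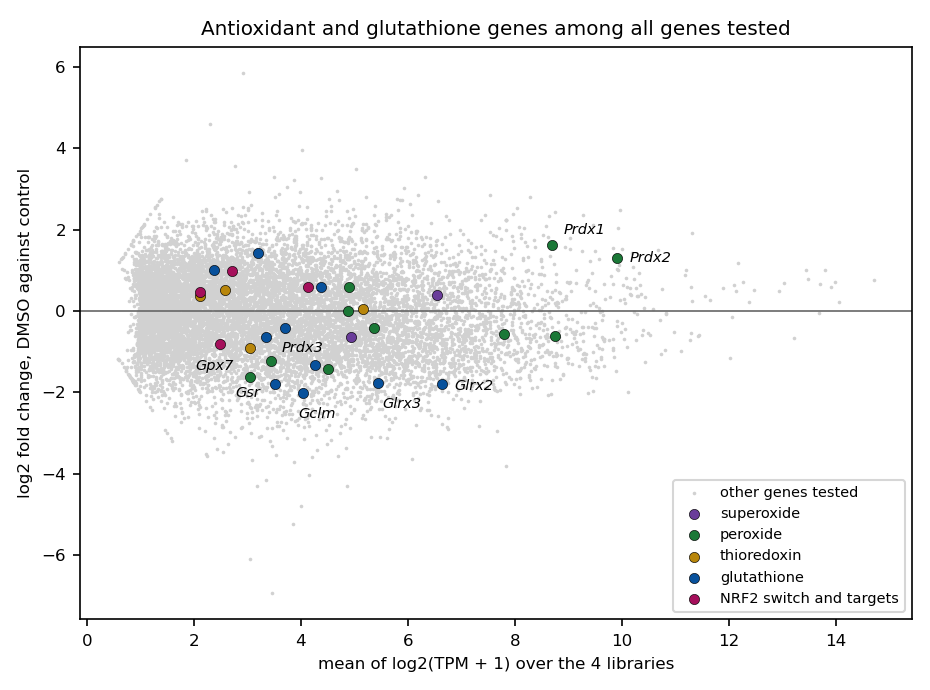
log2 fold change against the mean of log2(TPM + 1) over the 4 libraries for the 12038 genes tested (grey) and the 30 antioxidant and glutathione genes (coloured by system). The 8 called genes are named, Prdx1 and Prdx2 at 1.63 and 1.31 among abundant genes and Gclm lowest at -2.01.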

How the data were processed

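RNA of 2-cell mouse embryos was amplified from few cells (SMARTer Ultra Low Input) and sequenced as 50 bp reads in 4 libraries, called single end in one label and paired end in another. The authors quantified transcripts with kallisto on the Ensembl GRCm38 (mm10) transcriptome, summed them per gene with tximport and deposited TPM values. The submitters' processing notes also name STAR, SAMtools and bedtools, and tool versions are not given in the sources used here. kallisto splits reads shared by similar genes, and TPM keeps no depth, so no counting error was derived. The study's own count-based test cannot be run on TPM. Groups and replicate numbers are those of the sample titles.

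GENCODE M21 (GRCm38) named 29668 of 30049 identifiers. The filter kept genes whose mean over all libraries reached 1 TPM. A linear model of log2(TPM + 1) was fitted by limma 3.58.1 under R 4.3.3 (eBayes with a trend, no replicate block, two-sided, Benjamini-Hochberg over all 12038 genes). The fit was tested on simulated data: of 200 genes changed by 4 on the log2 scale 194 were recovered, with 12 false calls among 12038 genes, and of 2400 genes changed by 2 there were 2157 recovered, with 84 false calls. The noise was independent between libraries and drawn from the model's own fitted variances. The simulation thus checks the code and cannot show how far the calls in these data hold. Changes smaller than 2, as in all tested members but Gclm, were not simulated. Words of 31 bases were compared on either strand. The alternatives were a pseudocount of 0.1, no filter, a mean of at least 5 TPM, no trend, median-ratio, quantile and non-mitochondrial scaling, the replicate block, leaving out each library, and summing a gene with those that share at least 20% of its words.

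The members and lists were chosen with earlier results of these data known. Values are given for members that were called, had a mean of at least 50 TPM or were listed at 0 in some libraries, and for further members to describe each system. From each wider list the called genes, at most 4, and the 2 most abundant are named, except 1 gene that is not reported here. Python 3.11.15, pandas 2.3.3, numpy 2.4.6 and matplotlib 3.10.9 were used.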

Additional observations from a re-analysis of the deposited data

How the results depend on the processing

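Calls by limma depended on the filter, the pairing and single libraries. With no filter on low values 0 genes of the table, 0 members (in either direction) and 0 of the wider lists (in either direction) were called, with 5368 genes of the table, 15 members and 41 wider genes at an unadjusted p-value under 0.05. Leaving out each library gave 0 to 1883 genes of the table, 0 to 1 members higher and 0 to 6 lower, and 0 to 8 wider genes higher and 0 to 10 lower. The variance without a trend left 1 member called higher, Prdx1, and 629 of all 12038 genes. A mean of at least 5 TPM gave 2 of 26 tested members higher and 7 lower, Prdx5 being the added one. It left 6 of 66 tested wider genes called higher. Over all genes this filter gave 766 of 7470 higher and 1684 lower. Quantile normalization and TPM rescaled without mitochondrial genes each left 5 of 101 wider genes called lower. Over all 12038 genes these scalings called 1121 and 1052 lower, against 1697 in the main fit. Under median-ratio, quantile and non-mitochondrial scaling Prdx1, Prdx2, Gpx7, Glrx2, Glrx3 and Gclm stayed called, and Prdx3 and Gsr did not.

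The groups share replicate numbers, but no source says that a number marks a shared culture or day. Across 12038 genes, which are not independent, the deviations of libraries that share a number had a correlation of 0.35. Blocking on that number gave 5132 calls in the table, with 5 members higher (Prdx1, Prdx2, Glrx, Slc7a11 and Nqo1) and 12 lower (the 6 without the block and Gpx1, Gpx4, Prdx5, Txn2, Gclc and Keap1), against 17.9% and 24.8% of all genes, and with 20 wider genes higher and 24 lower.

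The log2 fold change of Gpx3 turned to 0.042 with median-ratio scaling, 0.21 with quantile normalization and 0.091 with TPM rescaled without mitochondrial genes. Without one library that of Gpx1 ran from -1.34 to 0.13, of Gpx3 from -0.22 to 0.21, of Txnip from -0.28 to 0.36 and of Hmox1 from -0.11 to 1.03. The cause was not tested. The other tested members kept their direction under each alternative. Summing a member with genes of the table that share at least 20% of its 31-base words, which was possible for Sod2 (with Rps6ka2) and Gstp1 (with Gstp-ps) among the tested members, changed no call of a member. The median log2 fold change of the tested members lay between -0.50 and -0.12. With 2 libraries a group and no known depth, small changes and low genes could not be resolved.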
